A study of Mus musculus with 12 samples.

Results

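The genes described are 10 transcriptional targets of p53 that act in cell death, growth arrest and feedback on p53: Mdm2, Pmaip1, Bbc3, Bax, Perp, Trp53inp1, Phlda3, Ccng1, Sesn2 and Zmat3. They were taken as every probe that is not a control and that the array files name after one of these genes. They are 10 of the 22370 genes named on the array, read by 11 of its 55681 probes, 1 per gene and 2 for Trp53inp1. All 11 were well above background on all 12 arrays, and none was saturated on any array.

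Total RNA was measured on single-colour Agilent arrays, 1 array per sample. The mouse embryonic stem cells (mESC) gave 4 samples with the Tbx3-high phenotype and 4 with the Tbx3-low phenotype. The mouse induced pluripotent stem cells (iPSC), which are somatic cells reprogrammed to pluripotency, gave 2 Tbx3-null samples and 2 Tbx3 wild-type samples. Strain, culture medium, the source cells of the iPSC, the number of clones, how Tbx3-high cells were separated from Tbx3-low cells and what the null allele removes are not stated in the labels. No sample carried a DNA-damaging treatment according to its labels. The labels name no separate cultures or animals within a group, and the p-values then reflect the scatter among these arrays alone, which may be technical.

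The p53 protein, encoded by Trp53, is a transcription factor that is held low by the ubiquitin ligase Mdm2 and stabilised by DNA damage and other stress. Once stable, it switches on Mdm2 itself, which closes a negative feedback loop, and sets of genes that open the mitochondrial outer membrane, restrain growth signalling or slow the cell cycle. Pluripotent stem cells hold a large p53 pool and are poised for apoptosis, and p53 activity is known to limit reprogramming to iPSC. Tbx3 is a T-box factor that helps to sustain the pluripotent state. These comparisons show how the basal levels of p53 targets lay beside the Tbx3-high, Tbx3-low, Tbx3-null and wild-type labels.

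RefSeq promoter windows of 300 bases (250 before to 50 after the start site, GRCm38.p6) were at hand for 6 of the 10 genes: Mdm2, Bbc3, Bax, Ccng1, Sesn2 and Phlda3. Each was searched on both strands for the palindromic p53 response element consensus of 20 bases, without a spacer. The stretches with 3 or fewer mismatches, a limit chosen after the matches were seen, are shown because they have the fewest mismatches to the consensus. All positions counted alike, so a mismatch at a base that the consensus fixes weighed no more than another. The 20 matched bases are in capitals, with 20 bases on each side.
Ccng1 (chr11:40755442-40755501, minus strand, 1 mismatch, 195 to 176 bases before the start site): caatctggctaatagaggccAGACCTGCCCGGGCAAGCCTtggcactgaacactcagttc
Bbc3 (chr7:16309466-16309525, plus strand, 3 mismatches, 97 to 78 bases before the start site): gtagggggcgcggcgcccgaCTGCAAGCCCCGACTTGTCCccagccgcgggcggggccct
Bax (chr7:45467070-45467129, minus strand, 3 mismatches, 211 to 192 bases before the start site): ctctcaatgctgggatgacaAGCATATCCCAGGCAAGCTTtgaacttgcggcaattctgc

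Of all 27025 genes with such a window, 7.20% held a match with at most 3 mismatches and 0.107% one with at most 1. Among 32 other p53 targets with a window, 10 held a match with at most 3 mismatches, which is 31.2%. The best matches of Mdm2, Sesn2 and Phlda3 had 5 mismatches. Known p53 elements often lie in introns, as in Mdm2, outside such windows, so a window without a match says only that these letters are not in it. A match is a description of the sequence, not of binding.

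Levels are given as multiples of the array's own 75th percentile of probe signal, and they are compared between samples for 1 probe at a time. The marker sums given next are the exception: they add levels over different probes, so the brightest probes weigh most in them. A change is the log2 difference of 2 group means, given with its standard error (SE) from a limma fit over all 12 arrays. A change is said to rise or fall when its Benjamini-Hochberg adjusted p over all tested probes is under 0.05. In RNA from bulk cells, fewer cells of a type and less RNA per cell cannot be told apart.

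The 75th percentile of signal was 314 to 458 for mESC and 699.8 to 1007 for iPSC, and 55.9% to 68.6% of spots were well above background. Of the 10 pluripotency markers, all 10 were well above background in every group, and their summed level was 623 to 715 in Tbx3-high and 595 to 679 in Tbx3-low mESC, and 739 to 760 in Tbx3-null and 668 to 693 in wild-type iPSC. Summed fibroblast markers reached 13.0 to 37.3 in Tbx3-high and 14.3 to 15.8 in Tbx3-low mESC, and 41.4 to 46.7 in Tbx3-null and 34.9 to 35.6 in wild-type iPSC, with Lum and Postn not well above background on any mESC array; of 15 such markers, 10, 9, 10 and 12 were well above background on all arrays of these groups, in this order. The 37.3 came from Tbx3-high replicate 2 and its Thy1 signal, since without Thy1 that array was at 10.7. Summed primitive endoderm markers were 208 to 231 in Tbx3-high and 182 to 195 in Tbx3-low mESC, and 163 to 167 in Tbx3-null and 134 to 152 in wild-type iPSC, with Ttr not well above background on any array; 14, 14, 13 and 15 of 16 were well above background throughout these groups, in this order. Most of that sum was Sparc, and without it the sum was 68.1 to 87.8 in Tbx3-high and 60.3 to 68.1 in Tbx3-low mESC, while in iPSC the order turned, with 22.3 to 23.6 in Tbx3-null and 38.4 to 40.1 in wild-type cells. In Tbx3-high mESC, where 25.9% of all tested probes were called, 3 of 10 tested pluripotency markers rose and 1 fell (40%), 4 of 10 fibroblast markers rose and 2 fell (60%), and 7 of 14 primitive endoderm markers rose and 1 fell (57.1%). In Tbx3-null iPSC, where 28.3% of all were called, 1 of 10 pluripotency markers was called, as a rise (10%), 4 of 13 fibroblast markers rose and 3 fell (53.8%), and 2 of 15 primitive endoderm markers rose and 9 fell (73.3%). The part of these marker differences in the results was not tested. All mESC arrays lay on 1 slide, with Tbx3-high samples in columns 3 and 4 and Tbx3-low samples in columns 1 and 2, so group and column cannot be told apart. All iPSC arrays lay on the other slide, likewise split by column, so a difference between mESC and iPSC cannot be told apart from the slide, and only changes within a slide are tested.

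Tbx3 itself had 133, 135, 139 and 131 times the 75th percentile in Tbx3-high mESC, against 53.8, 54.1, 53.2 and 52.7 in Tbx3-low mESC. The groups did not overlap, and the change was 1.33 ± 0.08 (SE, limma, adjusted p = 7.25e-07). In iPSC it had 45.6 and 44.8 on the arrays labelled Tbx3-null, against 31.9 and 40.9 on the wild-type arrays, so the probe was not lower with the null label. That change of 0.32 ± 0.11 (limma, adjusted p = 0.0482) lost its call in 9 of 12 alternatives, among them without Tbx3-null replicate 1 (adjusted p = 0.163), Tbx3-null replicate 2 (0.119) or wild-type replicate 1 (0.349), where it was 0.15. The probe lies on chromosome 5 at 120134511 to 120134570 (mm9). As the labels do not say which part of the gene is deleted, the probe does not check the null label, and the samples are called by their label.

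The first comparison asks which p53 targets differ between Tbx3-high and Tbx3-low mESC. Mdm2, Perp and Trp53inp1 fell and Pmaip1 and Bax rose, while Bbc3, Phlda3, Ccng1, Sesn2 and Zmat3 did not pass the test. The largest change among the 10 was the 1.77-fold lower Perp, and the others that passed were between 1.21-fold and 1.37-fold. So 5 of 10 genes were called, 2 higher and 3 lower. Of all 30691 tested probes, 25.9% were called, 14.5% higher and 11.4% lower. With 1 probe per gene name, as for the members, 3024 of 15186 were called higher and 2368 lower, a larger share than over all probes. The median change over the 10 genes was -0.13, against 0.04 over all tested probes. Mdm2, Perp and Trp53inp1 also had all Tbx3-high arrays below all Tbx3-low arrays, which is 30% of the genes. Of all tested probes, 29.2% had groups that did not overlap, 16.4% higher and 12.8% lower.

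**Figure D1:**
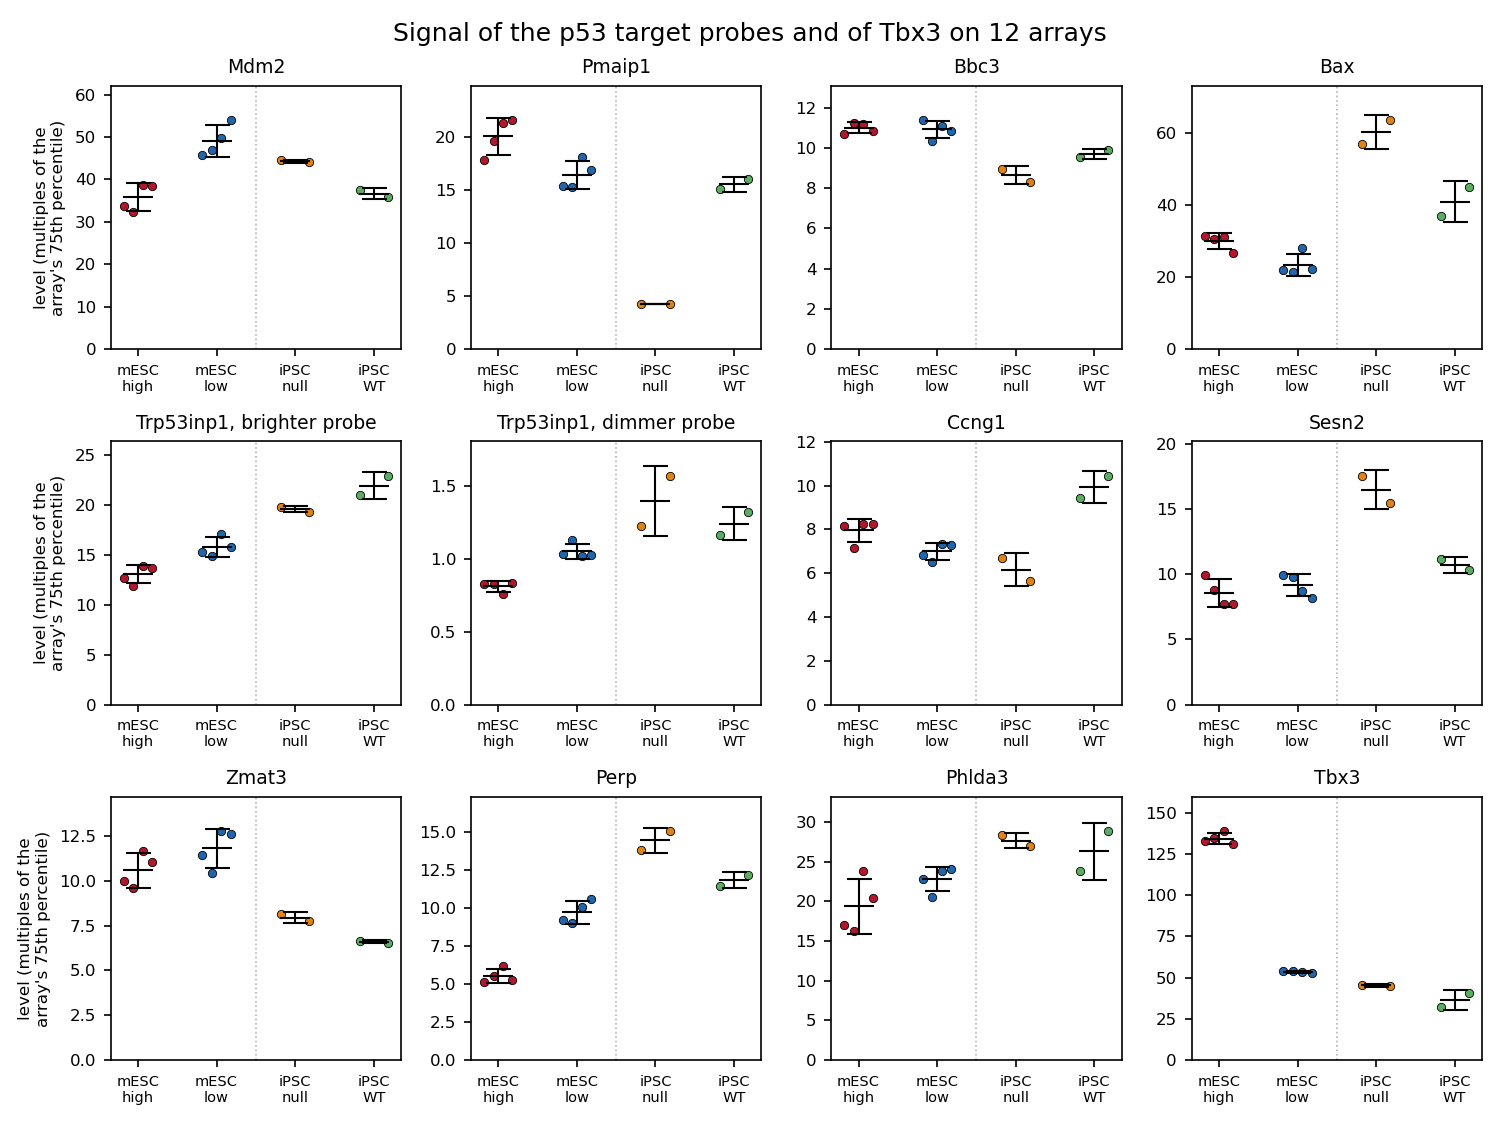
Level of each p53 target probe and of Tbx3 (vertical axis, multiples of the array's 75th percentile, starting at 0) on the 12 arrays, with Tbx3-high and Tbx3-low mESC left of the dotted line and Tbx3-null and wild-type (WT) iPSC right of it. Points are arrays, the bar is the mean and the whiskers are 1 SD (n = 4 per mESC group, n = 2 per iPSC group). Pmaip1 stands at 4.25 ± 0.02 in Tbx3-null and 15.6 ± 0.7 in wild-type iPSC, and Perp at 5.52 ± 0.46 in Tbx3-high and 9.74 ± 0.75 in Tbx3-low mESC.

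Mdm2, the ubiquitin ligase that marks p53 for degradation and is itself a p53 target, was read by a probe on chromosome 10 at 117126010 to 117126069 (mm9). It had 33.7, 32.2, 38.7 and 38.5 times the 75th percentile in Tbx3-high mESC, against 45.7, 46.8, 49.7 and 54.0 in Tbx3-low mESC. Every Tbx3-high array lay below every Tbx3-low array. Mdm2 fell by 0.46 ± 0.08 on the log2 scale (SE, 95% interval -0.64 to -0.27, limma, adjusted p = 0.00204), a 1.37-fold lower level. The change was -0.49 among the arrays of slide row 1 and -0.42 among those of row 2, where the adjusted p was 0.0546.

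Pmaip1 encodes NOXA, a BH3-only protein that binds and neutralises the survival protein Mcl1. Its probe lies on chromosome 18, and it gave 17.8, 19.6, 21.4 and 21.6 in Tbx3-high mESC, against 15.4, 15.3, 18.1 and 16.9 in Tbx3-low mESC. The highest Tbx3-low array, replicate 3, lay just above the lowest Tbx3-high array, so the groups overlapped. Pmaip1 rose by 0.29 ± 0.08 (SE, 95% interval 0.11 to 0.47, limma, adjusted p = 0.0254). The call ended in 7 of 19 alternatives (limma, adjusted p up to 0.104), although the change stayed between 0.25 and 0.35. Among the 7 were leaving out Tbx3-low replicate 1 (adjusted p = 0.0689) or 2 (0.0706) and Tbx3-high replicate 3 (0.0661) or 4 (0.0728).

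Bbc3 encodes PUMA, a BH3-only protein that binds the whole set of BCL2-like survival proteins, and its promoter stretch is printed above. Its probe, on chromosome 7 at 16903403 to 16903462 (mm9), gave 10.7, 11.3, 11.2 and 10.8 in Tbx3-high mESC, against 11.4, 10.4, 11.1 and 10.9 in Tbx3-low mESC. The groups lay on top of each other. The change was 0.01 ± 0.06 (SE, limma, adjusted p = 0.914), with a 95% interval of -0.12 to 0.14.

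Bax, the effector that forms pores in the mitochondrial outer membrane, was read on chromosome 7 at 52717122 to 52717181 (mm9). It had 31.4, 30.6, 31.2 and 26.6 in Tbx3-high mESC, against 22.0, 21.3, 28.0 and 22.1 in Tbx3-low mESC. Tbx3-high replicate 4 stood below its group and Tbx3-low replicate 3 above its own, so that these 2 arrays crossed. Bax rose by 0.36 ± 0.11 (SE, 95% interval 0.13 to 0.60, limma, adjusted p = 0.0276). Its change was 0.52 in slide row 1 and 0.21 in row 2, which holds both of those arrays (adjusted p = 0.422). The call also ended when any 1 of 6 of the 8 mESC arrays was left out (adjusted p 0.0623 to 0.0752). The exceptions were those same 2 arrays, Tbx3-high replicate 4 and Tbx3-low replicate 3. In all, the call ended in 8 of 19 alternatives.

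Perp, a membrane protein of desmosomes that acts as a p53 effector in apoptosis, was read on chromosome 10 at 18576697 to 18576756 (mm9). It had 5.12, 5.54, 6.16 and 5.25 in Tbx3-high mESC, against 9.23, 9.02, 10.1 and 10.6 in Tbx3-low mESC. The highest Tbx3-high array was well below the lowest Tbx3-low array. Perp fell by 0.82 ± 0.08 (SE, 95% interval -1.0 to -0.64, limma, adjusted p = 3.53e-05), and 3.12% of the tested probes fell by more. It was -0.78 in slide row 1 and -0.86 in row 2, and it kept its call under all 19 alternatives.

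Trp53inp1 encodes a stress-induced nuclear protein that promotes p53-driven death and also takes part in autophagy. Its brighter probe, on chromosome 4 at 11101174 to 11101233 (mm9), gave 12.7, 11.9, 13.8 and 13.7 in Tbx3-high mESC, against 15.2, 14.8, 17.1 and 15.8 in Tbx3-low mESC. The dimmer probe, at 11092530 to 11092589 on the same chromosome, gave 0.756 to 0.835 in Tbx3-high mESC and 1.02 to 1.13 in Tbx3-low mESC. Neither probe's groups overlapped. The brighter probe fell by 0.27 ± 0.07 (SE, limma, adjusted p = 0.0194) and the dimmer by 0.37 ± 0.09 (adjusted p = 0.00863). The brighter probe lost its call in 5 of 19 alternatives (limma, adjusted p up to 0.134). Among them were leaving out Tbx3-low replicate 3 (adjusted p = 0.0544) or Tbx3-high replicate 2 (0.0553).

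Phlda3, a repressor of Akt signalling that competes for membrane lipids, was read on chromosome 1 at 137665642 to 137665701 (mm9). It had 17.0, 16.3, 23.8 and 20.5 in Tbx3-high mESC, against 22.9, 20.6, 23.8 and 24.0 in Tbx3-low mESC. Tbx3-high replicates 1, 2 and 4 lay below every Tbx3-low array, and replicate 3 among them. The change was -0.25 ± 0.12 (SE, 95% interval -0.52 to 0.02, limma, adjusted p = 0.167). Without Tbx3-high replicate 3 it was -0.35 and passed (adjusted p = 0.0371).

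Ccng1 encodes cyclin G1, which brings a phosphatase to Mdm2, and it carries the closest p53 element match of the 6 genes searched. Its probe, on chromosome 11 at 40562427 to 40562486 (mm9), gave 8.17, 7.16, 8.24 and 8.24 in Tbx3-high mESC, against 6.83, 6.5, 7.35 and 7.29 in Tbx3-low mESC. Tbx3-high replicate 2 lay among the Tbx3-low arrays and the others above them. The change was 0.19 ± 0.08 (SE, 95% interval 0.00 to 0.37, limma, adjusted p = 0.131).

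Sesn2 encodes sestrin 2, which restrains growth signalling through mTORC1. It was read on chromosome 4 at 132048858 to 132048917 (mm9), with 9.96, 8.78, 7.73 and 7.69 in Tbx3-high mESC, against 9.97, 9.82, 8.72 and 8.15 in Tbx3-low mESC. Its change was -0.11 ± 0.10 (SE, 95% interval -0.33 to 0.12, limma, adjusted p = 0.511). Zmat3, a zinc finger protein that binds RNA, was read on chromosome 3 at 32233831 to 32233890 (mm9) and had 9.96, 9.61, 11.7 and 11.1 in Tbx3-high mESC, against 11.5, 10.5, 12.8 and 12.6 in Tbx3-low mESC. Its change was -0.16 ± 0.09 (SE, 95% interval -0.35 to 0.03, limma, adjusted p = 0.211), and the groups of both genes overlapped.

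Replicates 1 and 2 of both mESC groups lay in slide row 1, and replicates 3 and 4 in row 2. Over both groups together, 9 of the 11 probes had a higher mean in row 2, with the widest shifts in Phlda3 at 0.27 and Zmat3 at 0.21, while Sesn2 was lower there by a shift of -0.25. Within the rows, all 11 probes had the same sign of high minus low change, as the plot of changes by slide row shows. Among them was Bbc3, at only 0.016 and 0.007. The shares of all tested probes for these 2 counts were not computed. Each group held the same columns in both rows, so a column difference could repeat in both. In each group, Sesn2 was higher on both arrays of row 1 than on both of row 2.

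**Figure D2:**
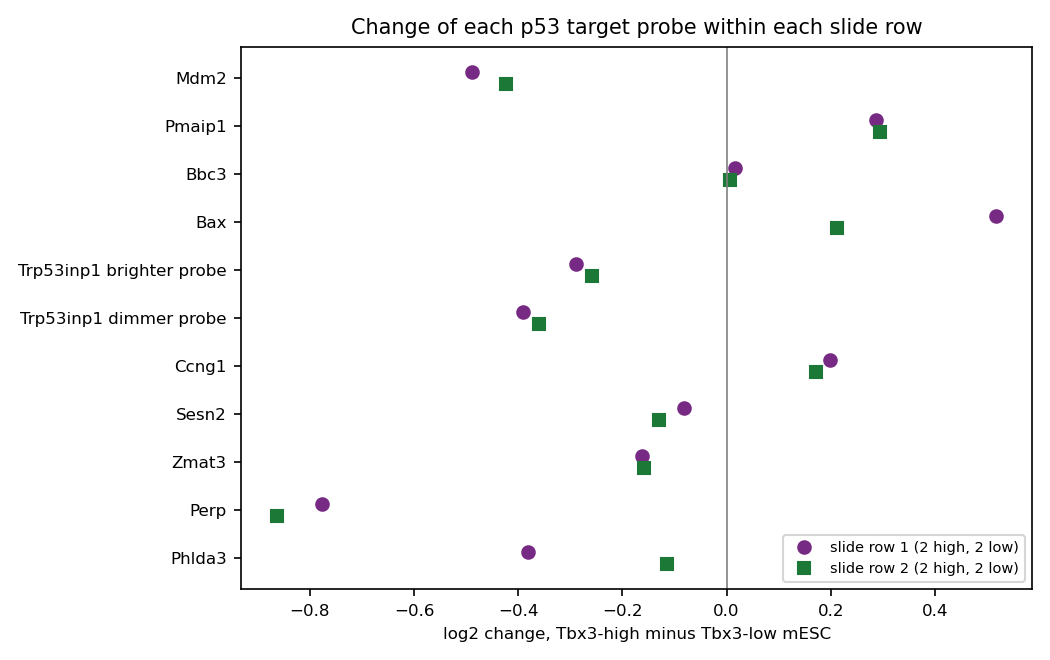
Log2 change, Tbx3-high minus Tbx3-low mESC (horizontal axis), of each p53 target probe among the 4 arrays of slide row 1 (circles) and the 4 of slide row 2 (squares). Each symbol is the difference between 2 Tbx3-high and 2 Tbx3-low arrays. All 11 probes have the same sign in both rows, and the share of all tested probes that do was not computed. Bax (0.52 and 0.21) and Phlda3 (-0.38 and -0.11) are the furthest apart.

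The second comparison asks which p53 targets differ between iPSC without and with Tbx3, by label. Pmaip1 and Ccng1 fell in the iPSC labelled Tbx3-null, and Bax and Sesn2 rose, while Mdm2, Bbc3, Perp, Trp53inp1, Phlda3 and Zmat3 did not pass the test. Pmaip1 was 3.66-fold lower, and the other 3 changes lay between 1.48-fold and 1.62-fold. So 4 of 10 genes were called, 2 higher and 2 lower. Of all 36712 tested probes, 28.3% were called, 15.5% higher and 12.9% lower. With 1 probe per gene name, 3817 of 16828 were called higher and 2834 lower, a larger share than over all probes. The median change over the 10 genes was 0.17, against 0.05 over all tested probes. With 2 arrays a group, 9 of the 10 genes had groups that did not overlap, 5 higher and 4 lower, where 66.4% of all tested probes had such groups, 36.9% higher and 29.6% lower. Setting the 75th percentile over the probes well above background on all 12 arrays moved the median of all probes by -0.11, to -0.06, and every member by the same amount; the share of higher among called probes was then 41.5%, against 54.6%.

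Pmaip1 had 4.26 and 4.24 times the 75th percentile in Tbx3-null iPSC, against 15.1 and 16.0 in wild-type iPSC. Both Tbx3-null arrays were below every other array of the study for this probe, although the mESC arrays lay on the other slide. The change was -1.87 ± 0.12 (SE, 95% interval -2.14 to -1.60, limma, adjusted p = 2.37e-06), and 2.90% of the tested probes fell by more. It kept its call under all 12 alternatives, with changes of -2.02 to -1.82.

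Ccng1 had 6.68 and 5.63 in Tbx3-null iPSC, against 9.42 and 10.5 in wild-type iPSC, with no overlap. It fell by 0.69 ± 0.12 (SE, 95% interval -0.96 to -0.43, limma, adjusted p = 0.00166) and kept its call under all 12 alternatives. Sesn2 had 17.6 and 15.4 in Tbx3-null iPSC, against 11.1 and 10.3 in wild-type iPSC. Both Tbx3-null arrays were above both wild-type arrays, and Sesn2 rose by 0.62 ± 0.15 (SE, 95% interval 0.29 to 0.95, limma, adjusted p = 0.0110). Its call ended without Tbx3-null replicate 1 (adjusted p = 0.0806) or wild-type replicate 2 (0.0657) and with quantile normalization (0.0689).

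Bax had 57.0 and 63.5 in Tbx3-null iPSC, against 36.9 and 44.9 in wild-type iPSC, again without overlap. It rose by 0.56 ± 0.15 (SE, 95% interval 0.22 to 0.91, limma, adjusted p = 0.0205). Its call ended in 5 of 12 alternatives, over which the change was 0.35 to 0.71. Among the 5 were leaving out Tbx3-null replicate 2 (adjusted p = 0.111) or wild-type replicate 1 (0.154). Quantile normalization, where the change was 0.36 (0.0964), was also among them.

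The other 6 genes moved less. Mdm2 had 44.6 and 44.0 in Tbx3-null iPSC, against 37.6 and 35.8 in wild-type iPSC, a change of 0.27 ± 0.12 (SE, limma, adjusted p = 0.119). Perp had 13.9 and 15.1 in Tbx3-null iPSC, against 11.5 and 12.2 in wild-type iPSC, a change of 0.29 ± 0.12 (adjusted p = 0.0998). In both genes the Tbx3-null arrays were the higher, with 95% intervals of 0.01 to 0.54 for Mdm2 and 0.03 to 0.55 for Perp. Zmat3 had 8.15 and 7.74 in Tbx3-null iPSC, against 6.66 and 6.54 in wild-type iPSC, and its change was 0.27 ± 0.12 (adjusted p = 0.147).

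Bbc3 had 8.97 and 8.32 in Tbx3-null iPSC, against 9.54 and 9.88 in wild-type iPSC, a change of -0.17 ± 0.08 (SE, limma, adjusted p = 0.168). The brighter Trp53inp1 probe had 19.7 and 19.3 in Tbx3-null iPSC, against 20.9 and 22.9 in wild-type iPSC, a change of -0.16 ± 0.11 (adjusted p = 0.294). Whether these 2 passed differed with the processing. Both were called lower with quantile normalization (adjusted p = 0.0159 for Bbc3 and 0.0189 for Trp53inp1) and with the other percentile (0.0263 and 0.0408). Both were also called lower with the authors' series table (0.00577 and 0.0145), whose scaling and background treatment are unstated. The cause was not tested. The dimmer Trp53inp1 probe had 1.23 and 1.57 in Tbx3-null iPSC, against 1.16 and 1.32 in wild-type iPSC, and with a change of 0.16 ± 0.12 (adjusted p = 0.385) it pointed the other way from the brighter one. Phlda3 had 28.4 and 27.0 in Tbx3-null iPSC, against 23.8 and 28.9 in wild-type iPSC, and the groups overlapped (0.08 ± 0.18, adjusted p = 0.800).

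**Figure D3:**
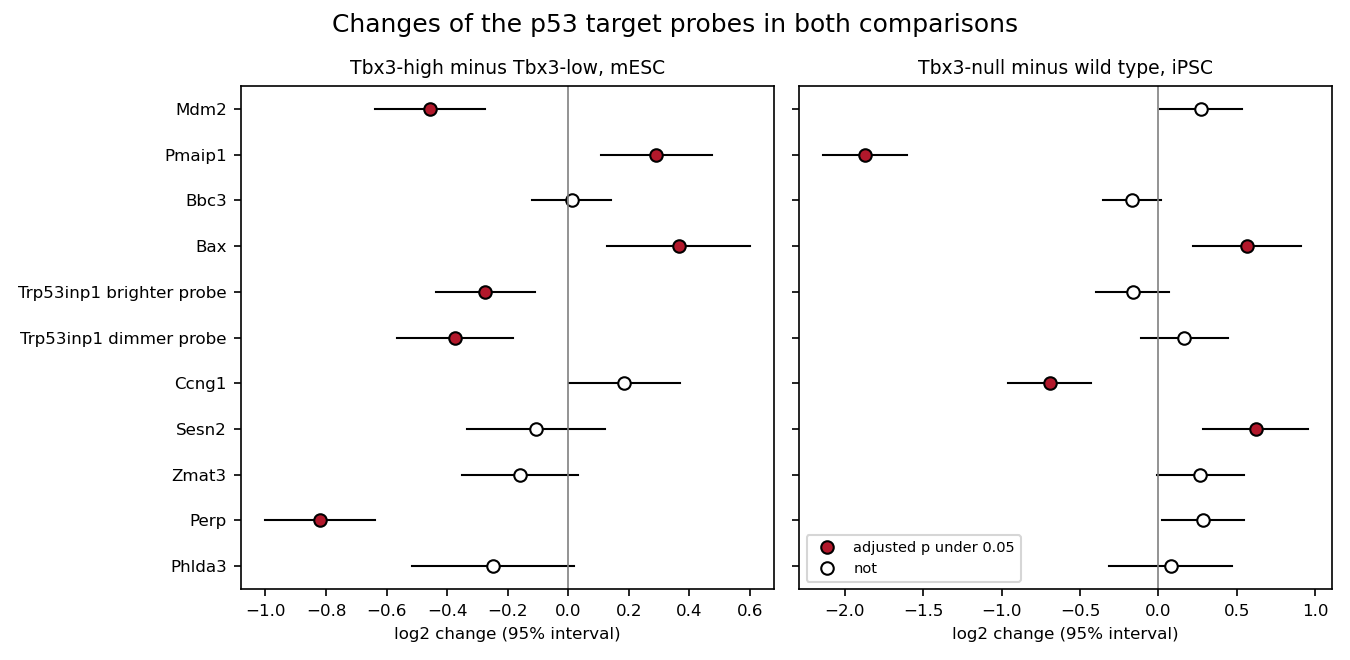
Log2 change of each p53 target probe (horizontal axis; the 2 panels have different ranges) in mESC, Tbx3-high minus Tbx3-low, and in iPSC, Tbx3-null minus wild type. Points are limma estimates, lines 95% intervals, and filled points passed at an adjusted p under 0.05. Perp at -0.82 in mESC and Pmaip1 at -1.87 in iPSC lie furthest from 0.

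Whether the change along the Tbx3 label differed between the cell types was tested as the high minus low change in mESC minus the wild-type minus null change in iPSC. A gene that moves with the label alike in both gives 0. Of the 10 genes, 1 passed above 0 (Bax) and 4 below 0 (Pmaip1, Trp53inp1, Ccng1 and Perp). Of all 37071 tested probes, 23.0% passed, 12.8% above and 10.1% below. With 1 probe per gene name, 3511 of 16982 passed above 0 and 2424 below, a larger share than over all probes. With the other percentile the median of all probes for this contrast moved by -0.13, to -0.04.

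Bax was higher in Tbx3-high mESC and also in Tbx3-null iPSC, and the difference was 0.93 ± 0.19 (SE, limma, adjusted p = 0.00618). Perp had the lower mean in Tbx3-high mESC and in wild-type iPSC, with a larger step in mESC and a difference of -0.53 ± 0.14 (adjusted p = 0.0240). For Pmaip1 and Ccng1, Tbx3-high mESC and wild-type iPSC both had the higher mean, with a larger step in iPSC, and the differences were -1.58 ± 0.15 (adjusted p = 5.68e-05) and -0.51 ± 0.15 (0.0305). The brighter Trp53inp1 probe had the lower mean in Tbx3-high mESC and in Tbx3-null iPSC, a difference of -0.44 ± 0.13 (adjusted p = 0.0347), while its dimmer probe gave -0.21 ± 0.15 (0.378). The differences of Mdm2, Bbc3, Sesn2, Zmat3 and Phlda3 did not pass, among them Sesn2 at 0.52 ± 0.18 (adjusted p = 0.0704). With the series table, Mdm2 (-0.54, adjusted p = 0.00745, against -0.18) and Bbc3 (-0.41, 0.0109, against -0.16) passed, and Bbc3 also did with quantile normalization (-0.34, 0.0317). The Pmaip1 and Bax differences kept their call under all 20 alternatives. The others lost it in some: Trp53inp1 in 9 (adjusted p up to 0.125), Ccng1 in 6 (up to 0.124) and Perp in 4 (up to 0.0955). Each of the 3 lost it without wild-type replicate 2 and without a filter on dim probes. Perp also lost it without Tbx3-null replicate 1 or wild-type replicate 1, and Ccng1 without Tbx3-low replicate 3 or 4 or Tbx3-null replicate 2. Trp53inp1 kept it only when the array left out was Tbx3-low replicate 1 or 2 or Tbx3-high replicate 3 or 4.

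The same pathway holds further genes, each read by its brightest probe. The shares of all probes set beside the gene lists and the markers count every probe. With 1 probe per gene name, the shares called were larger, as given above. In mESC, Trp53 had a mean level of 1.66 in Tbx3-high and 1.70 in Tbx3-low cells, a change of -0.04 ± 0.09 (SE, limma, adjusted p = 0.789). In iPSC it was 3.17 in Tbx3-null and 2.28 in wild-type cells and rose by 0.48 ± 0.12 (adjusted p = 0.0165). Of the 26 regulators of p53, 2 rose and 3 fell in Tbx3-high mESC, 19.2% against 25.9% of all probes. Cdkn2a, the locus of Arf, which inhibits Mdm2, fell most, by 0.94 ± 0.08 (adjusted p = 1.06e-05). Its mean was 2.39 in Tbx3-high and 4.57 in Tbx3-low mESC. Which transcript of the locus its probe reads was not determined. Trp53bp1, a DNA damage response protein that binds p53, fell by 0.40 ± 0.09 (0.00547), Ppp1r13l, an inhibitor of p53, fell by 0.36 ± 0.08 (0.00932), and Trim24, a ubiquitin ligase for p53, rose by 0.45 ± 0.09 (0.00438). Mdm4, the partner of Mdm2 that inhibits p53, changed by -0.17 ± 0.18 (0.534).

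In Tbx3-null iPSC, 6 of the 26 regulators rose and 1 fell, 26.9% against 28.3% of all probes. Besides Trp53, the kinase Chek2 rose by 0.49 ± 0.10 (SE, limma, adjusted p = 0.00406) and Daxx, an adaptor of Mdm2, by 0.59 ± 0.12 (0.00379). The kinase Hipk2, which phosphorylates p53, fell by 0.72 ± 0.13 (0.00256), although its other probe, at -0.34, did not pass. Trp53bp1 rose by 1.10 ± 0.12 (0.000111), and its other probe, at 0.37, did not pass. Cdkn2a, at 0.06 ± 0.11 (0.748), and Mdm4, at 0.34 ± 0.26 (0.391), did not pass.

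Of 37 other p53 targets tested in mESC, 5 rose and 3 fell (21.6%, against 25.9% of all probes). Their median change was 0.12, against 0.04 over all probes. Sesn1, a paralog of Sesn2, rose by 0.87 ± 0.11 (SE, limma, adjusted p = 0.000175), the translesion polymerase Polh by 0.65 ± 0.07 (6.74e-05) and the mitochondrial enzyme Dglucy by 0.61 ± 0.10 (0.00123), while the stress kinase Plk3 fell by 0.94 ± 0.08 (1.44e-05). Cdkn1a, the cell cycle inhibitor p21 and the best-known arrest target, was at 5.83 in Tbx3-high and 5.06 in Tbx3-low mESC. Its change was 0.20 ± 0.07 (0.0680), and its other probes pointed down, at -0.40 and -0.31, without passing.

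Of 38 other targets tested in iPSC, 4 rose and 8 fell (31.6%, against 28.3% of all probes). Their median change was -0.04, against 0.05 over all probes. Plk3 rose by 1.12 ± 0.12 (SE, limma, adjusted p = 7.08e-05) and Kitl, the ligand of the Kit receptor, by 2.69 ± 0.39 (0.000592), at low signal: its mean was 0.229 in Tbx3-null and 0.0355 in wild-type iPSC. Dglucy fell by 1.41 ± 0.15 (6.55e-05). The death receptor Fas was not well above background on either Tbx3-null array and was at least 3.95-fold lower there (adjusted p = 0.00400), with measured means of 0.0207 in Tbx3-null and 0.0935 in wild-type iPSC. That fold sets each Tbx3-null array at the lowest signal of any probe well above background on it, or at its own signal if higher. Cdkn1a was at 11.9 in Tbx3-null and 11.0 in wild-type iPSC, a change of 0.11 ± 0.11 (0.519).

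**Figure D4:**
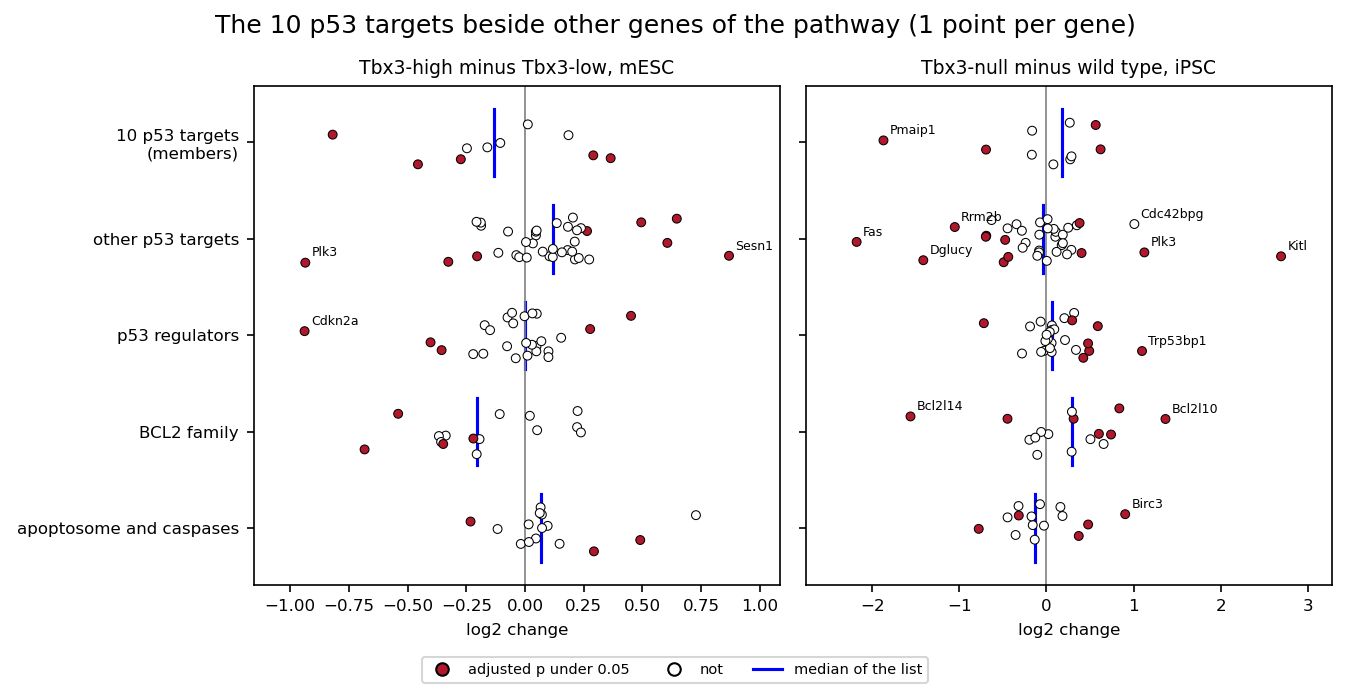
Log2 changes (horizontal axis; the 2 panels have different ranges) of the 10 p53 targets and of 4 lists of pathway genes, 1 point per gene, in Tbx3-high minus Tbx3-low mESC and in Tbx3-null minus wild-type iPSC. Filled points passed at an adjusted p under 0.05, the vertical line is the median of the list, points are spread vertically for display, and genes past 0.85 in size are named; Fas is drawn at its fitted value. The BCL2 family has a median of -0.21 in mESC and 0.29 in iPSC, where the 10 targets have -0.13 and 0.17.

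Pmaip1, Bbc3 and Bax work by binding the BCL2 family. Of its 15 other tested members, 0 rose and 4 fell in Tbx3-high mESC (26.7%, against 25.9% of all probes). Their median change was -0.21, against 0.04 over all probes. At an unadjusted limma p under 0.05, 1 member, Bcl2l1, was higher and 8 were lower. The share of all probes at that threshold was not computed. In mESC it gave 11 higher and 5 lower other p53 targets, 2 and 4 regulators, and 3 and 1 apoptosome genes. For the BCL2 family in Tbx3-null iPSC it gave 7 higher and 2 lower. Among the 4 family members that fell in Tbx3-high mESC were the BH3-only genes Bik, by 0.68 ± 0.11 (SE, limma, adjusted p = 0.00107), and Bcl2l11, by 0.54 ± 0.09 (0.000992). Bik had a low signal, with a mean of 0.1049 in Tbx3-high and 0.1685 in Tbx3-low mESC. The other Bcl2l11 probe, at -0.62, did not pass. The effector-like Bok fell by 0.35 ± 0.09 (0.0194) and the survival gene Mcl1 by 0.22 ± 0.07 (0.0363). Mcl1, which NOXA neutralises, had a mean level of 63.4 in Tbx3-high and 73.9 in Tbx3-low mESC. The survival genes Bcl2, at -0.34 ± 0.13 (0.0772), and Bcl2l1, at 0.22 ± 0.08 (0.0677), did not pass, although the other Bcl2l1 probe passed at 0.47.

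In Tbx3-null iPSC, 5 of 16 family members rose and 2 fell (43.8%, against 28.3% of all probes). Their median change was 0.29, against 0.05 over all probes. Mcl1 rose by 0.60 ± 0.10 (SE, limma, adjusted p = 0.00114), with a mean level of 60.6 in Tbx3-null and 40.0 in wild-type iPSC. Pmaip1 and Mcl1 differed in opposite directions in both comparisons. The BH3-only genes Hrk and Bik rose by 0.84 ± 0.12 (0.00052) and 0.74 ± 0.16 (0.00676). Bik had a low signal, with a mean of 0.1766 in Tbx3-null and 0.1057 in wild-type iPSC. Bcl2l14 fell by 1.56 ± 0.09 (1.41e-06), and Bcl2l10 rose by 1.37 ± 0.46 (0.0487) at a mean level of 0.0498 in Tbx3-null and 0.0193 in wild-type iPSC, where 1 array was not well above background. Bcl2 (0.50 ± 0.19, 0.0706), Bcl2l1 (-0.20 ± 0.12, 0.258) and Bcl2l11 (0.29 ± 0.13, 0.117) did not pass.

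Downstream of the pores lie the apoptosome, the caspases and their inhibitors. Of 15 such genes, 2 rose and 1 fell in Tbx3-high mESC (20%, against 25.9% of all probes). The mitochondrial protease Htra2 rose by 0.49 ± 0.07 (SE, limma, adjusted p = 0.00031) and the nuclease Endog by 0.29 ± 0.07 (0.00855), while the initiator caspase Casp2 fell by 0.23 ± 0.07 (0.0301). In Tbx3-null iPSC 3 rose and 2 fell (33.3%, against 28.3% of all probes). The caspase inhibitor Birc3 rose by 0.90 ± 0.22 (SE, limma, adjusted p = 0.0114), at low signal. Its mean was 0.0891 in Tbx3-null and 0.0477 in wild-type iPSC. Diablo, which counters such inhibitors, rose by 0.48 ± 0.10 (0.00497). Cycs, cytochrome c, rose by 0.37 ± 0.12 (0.0374), although the other Cycs probe, at 0.02, did not pass. The larger of the 2 falls was that of the caspase inhibitor Xiap, by 0.78 ± 0.12 (0.00102).

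Over the 8 mESC arrays, the gene among 15164 with the profile most like each target called in either comparison was found by Pearson's r of log2 levels, as a description without a test. These arrays share a slide, its rows and the 2 groups, so r carries the group difference and the row shift. The most alike were Mucl3 for Mdm2 (r = 0.996), Parp1 for Pmaip1 (0.983), Cul7 for Bax (0.975), Gdap1l1 for Perp (0.996), Jade2 for Trp53inp1 (0.991), Isy1 for Ccng1 (0.985) and Gm715 for Sesn2 (0.944). In iPSC, which took no part in the choice, Mucl3 changed by 0.02 and Parp1 by 0.19, beside 0.27 for Mdm2 and -1.87 for Pmaip1. Gdap1l1 changed by 1.54 there, beside 0.29 for Perp. Cul7 changed by -0.01, beside 0.56 for Bax, and Jade2 by -0.37, beside -0.165 for the brighter Trp53inp1 probe. Isy1 changed by 0.30, beside -0.69 for Ccng1, and Gm715 by -0.59, beside 0.62 for Sesn2.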

How the data were processed

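The 12 arrays were grouped by the labels. The deposited intensity of each spot is, per the file headers, the processed signal of Feature Extraction 10.7.3.1 (Agilent). The headers mark spatial and multiplicative detrending as on and give the background method as code 7. Arrays were not scaled to each other, and probe positions refer to mm9. Per the labels, Cy3 was attached with a low-input kit. The deposited series table holds the authors' log2 values, of unstated scaling and background treatment. Its column medians were 6.61 on mESC and 6.58 to 6.59 on iPSC arrays, and it served as an alternative only.

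Each array's processed signals were divided by their 75th percentile, control probes left out, and put on a log2 scale. Spots marked as outliers by the scanner software were left out, and spots of a probe were averaged. A probe was tested when all arrays of at least 1 compared group had it well above background. All arrays were fitted with 4 group means in limma 3.58.1 (R 4.3.3), with Benjamini-Hochberg adjustment over all tested probes and a threshold of 0.05. Promoters were searched in Python 3.11.15 and figures drawn with matplotlib 3.10.9. Scripts were tested on simulated data. Current names came from RefSeq gene tables (GRCm38), by accession, symbol or synonym. Precision is limited by the number of arrays.

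The members and gene lists were chosen with earlier results of these data known; 1 gene of the apoptosome list is not reported here. Named were all members, up to 4 called genes a list with the largest changes in each comparison, a fixed set of key genes (Trp53, Cdkn1a, Mdm4, Cdkn2a, Bcl2, Bcl2l1, Mcl1 and Bcl2l11), and the gene most like each called member. Alternatives were quantile normalization, normexp background correction, another percentile, the series table, no filter on dim probes, 1 probe per gene, fewer samples, slide rows, a replicate block, and leaving out each array.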

Additional observations from a re-analysis of the deposited data

Results flagged for a closer look

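Among 28 groups of 4 mESC arrays examined, 1 array stood apart from its group in 4, by the ratio of its gap to the group's range against Dixon's 95% limit for 4 samples; chance gives about 1 in 20 groups. They were Tbx3-high replicate 4 (0.843) and Tbx3-low replicate 3 (0.856) for Bax, Tbx3-high replicate 3 for the dimmer Trp53inp1 probe (0.862) and Tbx3-high replicate 2 for Ccng1 (0.936). Both Bax arrays lie in slide row 2, and each moves Bax toward the other group. Ccng1 was 7.16 on the array that stood apart, against 8.17 to 8.24 on the other Tbx3-high arrays.

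The change along the Tbx3 label differed between mESC and iPSC, by the limma contrast, for 5 of the 10 targets: Pmaip1 (-1.58), Bax (0.93), the brighter Trp53inp1 probe (-0.44), Ccng1 (-0.51) and Perp (-0.53). Of 95 tested genes of the 4 pathway lists, 10 passed above 0 and 13 below 0, 24.2% against 23.0% of all probes, and up to 4 a list with the largest differences are named. Above 0 these were Kitl (2.30), Birc3 (0.88), Polh (0.88), Trp53bp1 (0.69), Hrk (0.63), Diablo (0.63), Daxx (0.54) and Mcl1 (0.38). Below 0 they were Fas (-2.21), Bcl2l14 (-1.75), Cdkn2a (-0.88), Rrm2b (-0.87), Bok (-0.80), Hipk2 (-0.72), Xiap (-0.71) and Casp2 (-0.39). These are values of each gene's brightest probe. A second probe did not pass for Hipk2 (0.58, the opposite direction), Trp53bp1 (-0.05, the opposite direction), Cdkn2a (-0.59) and Mcl1 (0.13). Fas and Kitl had arrays not well above background in these groups, so their values are fitted ones. Each cell type lies on its own slide, so cell type and slide cannot be told apart, and what part the slide has was not tested.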

How the results depend on the processing

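Perp in mESC, Pmaip1 and Ccng1 in iPSC and the Pmaip1 and Bax differences between cell types kept direction and call under every alternative run. Of 558 recomputed member values, 483 kept direction and side of the threshold, 49 lost a call, 13 gained one and 13 changed sign, all 13 among values not called. The sign changes were Bbc3 in mESC (-0.034 with quantile normalization, -0.024 normexp, -0.014 other percentile, -0.055 series table, and -0.013 to 0.032 as each array was left out, negative without Tbx3-low replicate 2), Phlda3 in iPSC (-0.065 quantile, -0.029 other percentile, and -0.060 to 0.219 leaving out each array, negative without wild-type replicate 1), Mdm2 in iPSC (-0.017 series table), the dimmer Trp53inp1 probe in iPSC (-0.012 to 0.341, negative without Tbx3-null replicate 2) and the Zmat3 difference (-0.054 quantile, -0.028 other percentile, -0.016 series table). Counts moved as follows. In mESC, the members higher were 0 without the dim filter, 1 in row 1 and 0 in row 2, and those lower were 1 in row 2; the 4 lists gave 9 higher and 11 lower, but 17 lower with quantile, 6 lower without the filter, 5 lower in row 1, and 5 higher and 5 lower in row 2. In iPSC, members higher were 0 with quantile, 1 with the series table and 1 on the iPSC arrays alone, and members lower were 4 with quantile, the other percentile and the series table; the lists gave 18 higher and 13 lower, but 11 and 21 with the other percentile, 21 lower with the series table, and 9 and 8 on the iPSC arrays alone. For the difference, members above 0 were 2 with the replicate block, 1 probe per gene or the row block, where Sesn2 joined, and those below 0 were 1 without the filter, while Mdm2 (series table) and Bbc3 (series table and quantile) gained a call below 0; the lists gave 10 above 0, but 5 with quantile, 6 with the other percentile, 5 without the filter and 16 with 1 probe per gene. The Tbx3 change in iPSC lost its call with quantile (0.112), the other percentile (0.216), the series table (0.186), and, at an unchanged 0.32, without the filter (adjusted p = 0.104), with the replicate block (0.0918) and on the iPSC arrays alone (0.223). Leaving out 1 array gave 0 to 2 members higher and 2 to 4 lower in mESC, 1 higher and 2 lower in iPSC, and 1 above and 1 to 4 below 0 for the difference; the lists gave 8 to 10 higher and 6 to 11 lower, 9 to 13 and 9 to 15, and 5 to 11 and 10 to 13, and Tbx3 in iPSC was 0.145 to 0.503. The causes were not tested, beyond fewer arrays or more probes where the alternative has them. Over all probes, calls higher and lower were 4439 and 3507 in mESC, but 1865 and 1901 in row 2 alone and 2788 higher in row 1 alone; 5673 and 4725 in iPSC, but 3482 higher on the iPSC arrays alone, 2834 lower with 1 probe per gene and down to 3524 higher without 1 array; and 4762 and 3746 for the difference, but 2424 lower with 1 probe per gene and down to 3006 higher without 1 array. The replicate numbers did not pair the samples (same-number correlations of 0.067 to 0.122 in mESC and 0.007 in iPSC); the block changed 2 of 33 member results, Ccng1 (-0.51, adjusted p = 0.0593) and Sesn2 (0.52, 0.0287), both for the difference.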
